A study of Mus musculus with 81 samples.

Results

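The comparison described here is the step from the yolk sac population A2 at E9.5 to brain microglia at E14 in wild-type mice. Its members are the 6 arrays, of 81 in the series, that the labels give as wild-type A2 (3 arrays) and wild-type embryonic microglia (3 arrays). The series used Affymetrix arrays to profile sorted macrophages and their progenitors at several ages, in mice that were wild type or lacked Irf8. A2 cells came from the yolk sac at embryonic day 9.5 and are described in their labels as a yolk sac progenitor population. The microglia came from brain at embryonic day 14. Arrays used beside them are wild-type A1 (a yolk sac population at E9.5), E8 progenitors (EMP), E14 Kupffer cells from liver and adult microglia at 6 weeks, with 3 arrays each, and the Irf8 knockout counterparts of A2 (4 arrays of 3 samples) and of E14 microglia (3 arrays). No label states the strain, how many embryos were pooled, or the gates of the sort. Stage, tissue and handling differ together between A2 and E14 microglia: only brain cells passed a Percoll gradient, per the labels' protocols. These cannot be told apart from the change of cell state.

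Microglia are the resident macrophages of the brain. They descend from yolk sac progenitors that enter the embryo through the early circulation and settle in the neural tube, where signalling through the Csf1 receptor keeps them alive and TGF-beta signalling and the transcription factor Sall1 maintain their adult gene programme. In published work A1 and A2 name an earlier, Kit-bearing and a later, Cx3cr1-bearing stage of yolk sac macrophage development. Kit, Cx3cr1, Ptprc, Itgam and Adgre1 encode antigens or reporters used to isolate such cells. Their values, tests and places in list counts are therefore given as description.

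The values are log2 signals, on which a difference of 1 is a 2-fold difference. Over all probes, arrays of the same population correlated at 0.961 to 0.972 and arrays of different populations at 0.924 to 0.941. A2 replicate 2 stood apart in genes of yolk sac endoderm, with Afp (alpha-fetoprotein) at 7.26 against 3.86 and 3.65 in the other A2 arrays. E14 microglia replicate 3 stood apart in granule proteases of immature granulocytes, with Elane (neutrophil elastase) at 7.50 against 2.82 and 3.43, and replicates 2 and 3 both held neutrophil transcripts at higher levels than replicate 1. Counts that moved by over 1.5 times without an array are given with and without it. In these sorted but bulk samples, fewer cells of a type and less RNA per cell cannot be told apart. The p-values set a difference against the spread between samples of a group, shared over the 27 groups of the series. The labels do not say that replicates came from separate litters, so this spread may not be that between litters.

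Of 17099 genes tested, 4994 (29.2%) differed between E14 microglia and A2 at an adjusted p under 0.05 by limma. Of these, 2396 (14% of the genes tested) were higher in E14 microglia and 2598 (15.2%) were lower. The counts of each gene list below stand beside these shares of all genes. Called genes changing by over 1 log2 unit were about equally many in each direction, 1196 higher and 1168 lower. Changes of over 3 log2 units were mostly rises, 90 against 20. The A2 mean of 446 of the genes that rose lay under 3.04, the median of all values in the table and the floor used for the low-value filter, where array signal is mostly background. The median change over all genes was -0.01. Centring each array on its median shifted that to -0.128 and moved the split to 1915 higher and 3235 lower, so 37.2% rather than 48.0% of called genes were higher. Without A2 replicate 2 and E14 microglia replicate 3, 1917 genes were higher and 1968 lower.

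Genes known as markers of adult microglia made up the strongest rise. Of 32 such genes, 31 were tested, 28 were higher in E14 microglia and 0 were lower, with a median change of 3.09. Sall1, the transcription factor that defines microglia among macrophages, read 3.37, 2.99 and 2.51 in the 3 A2 arrays and 9.24, 9.46 and 9.19 in the 3 E14 microglia arrays. The A2 values lay around the floor and the groups were far apart. The change was 6.34 ± 0.34 (SE), the largest rise of the 17099 genes (limma adjusted p = 1.3e-23). Siglech, a sialic acid-binding lectin, went from 4.72, 4.74 and 5.26 to 10.18, 10.35 and 10.24. Tmem119, a membrane protein used to stain microglia, went from 4.18, 4.02 and 3.69 to 7.52, 7.97 and 7.87. P2ry12, the ADP receptor that steers microglial processes, differed in its starting point: it read 7.74, 7.31 and 6.89 in A2, well above the floor, and 10.57, 10.41 and 10.24 in microglia, a change of 3.09 ± 0.38 (limma adjusted p = 1.18e-09). Sall1 was thus at background in A2 while P2ry12 was already measurable there. The secreted protein Sparc (5.31), the fructose transporter Slc2a5 (4.95), Crybb1 (5.02) and the Nogo receptor relative Rtn4rl1 (5.11) had changes close to that of Siglech, and Olfml3 went from 4.10, 3.13 and 3.36 to 8.75, 8.41 and 8.43. The 3 members that did not pass were Smad3, with a change of 0.58 (adjusted p = 0.0508), Mef2c, with 0.40, and Upk1b. Cx3cr1, the fractalkine receptor, read 10.39, 10.33 and 9.98 in A2 and 11.50, 11.56 and 11.62 in microglia, a difference of 1.33 ± 0.50 that passed the limma test at 0.0354 and missed it when any 1 of the 6 arrays was left out, with changes of 1.20 to 1.40.

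**Figure D1:**
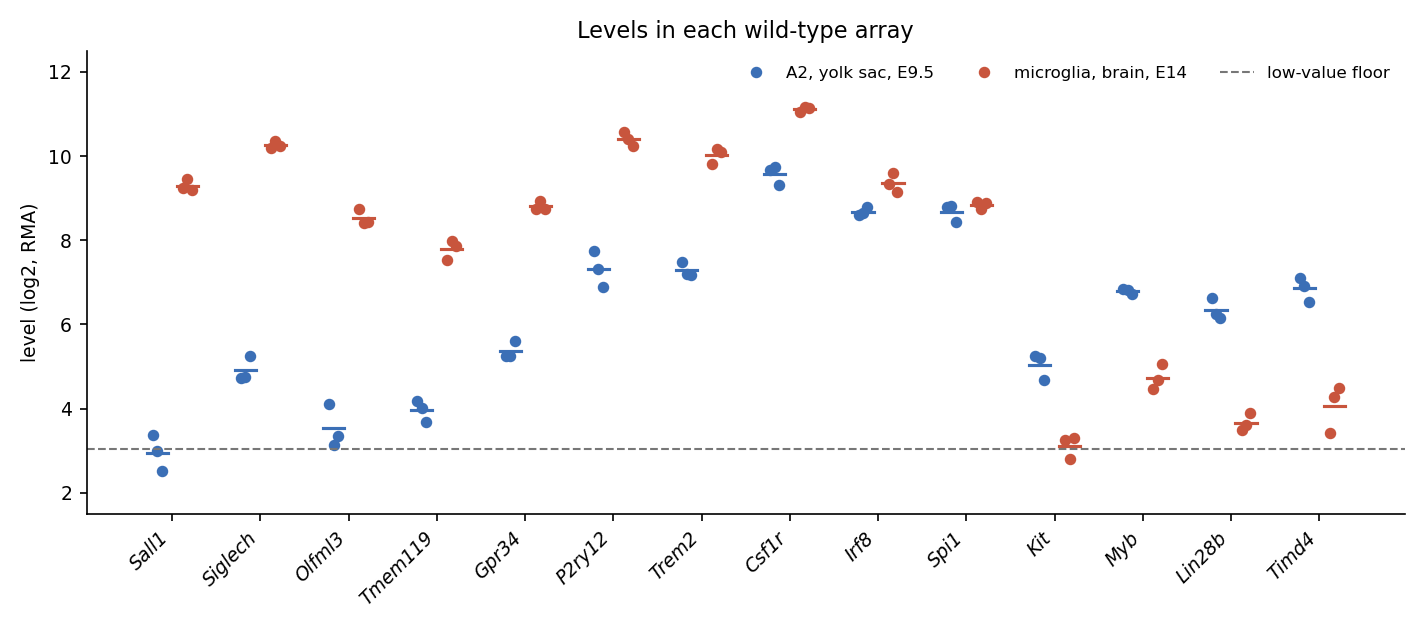
Each point is the log2 RMA level of a gene (y axis) in 1 wild-type array, blue for A2 and red for E14 microglia, with a bar at the mean of 3 and the low-value floor dashed. Sall1 stands at the floor in A2 and between 9.19 and 9.46 in microglia, Spi1 overlaps between the groups, and Kit, Myb, Lin28b and Timd4 are lower in all 3 microglia arrays.

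Among the other genes with the 15 largest rises were 2 whose products belong to tight junctions, Tjp1 (5.20) and F11r (4.82). Tjp1 read 3.20, 2.80 and 2.92 in A2 and 8.10, 8.28 and 8.13 in microglia. Il1a, the cytokine interleukin-1 alpha, read 2.33, 2.77 and 2.20 against 8.29, 8.41 and 8.06. The orphan receptor Gpr165 (5.70), the plexin domain protein Plxdc2 (5.37), the matrix protein nephronectin Npnt (4.99), the protease inhibitor Spint1 (4.81) and the phosphatidylserine-binding receptor Havcr2 (4.90) completed the group. None of these 15 genes had overlapping A2 and microglia arrays, as the rule for naming them required.

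Genes shared by all macrophages were already present in A2 and rose less. Of 22 tested, 21 were higher and 0 lower, with a median of 1.17, and the mean level of the list went from between 8.17 and 8.28 in the A2 arrays to between 9.59 and 9.73. Csf1r, the receptor for Csf1 and Il34, read 9.67, 9.74 and 9.31 in A2 and 11.04, 11.16 and 11.14 in microglia, a change of 1.54 ± 0.18 (limma adjusted p = 1.47e-10). Larger changes were those of Mpeg1 (3.50), which encodes a pore-forming protein of phagosomes, the receptor kinase Mertk (2.68), the protease Ctss (2.44), the lipopolysaccharide co-receptor Cd14 (2.42), Adgre1 (2.23), which encodes F4/80, and Itgam (2.02). Lyz2, the lysozyme of myeloid cells, was high in every array, from 9.98 to 10.36, and did not pass (change 0.08, adjusted p = 0.842). A2 therefore carried macrophage transcripts well above the floor although its label names a progenitor, and it is called A2 here without a cell type.

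The regulators of the myeloid lineage moved less uniformly than the markers. Of 30 transcription factors tested, 9 were higher, 5 were lower and the median was 0.18. Without A2 replicate 2 or without microglia replicate 1, 3 were lower. Of all genes tested 14% were higher and 15.2% lower, so the falls of this list lay near the share of all genes. Spi1, which encodes PU.1 and is needed for all macrophages, read 8.79, 8.81 and 8.43 in A2 and 8.90, 8.75 and 8.88 in microglia. The groups overlapped and the difference of 0.16 did not pass (adjusted p = 0.489). Irf8, the partner of PU.1 that the series deleted, read 8.60, 8.64 and 8.78 against 9.34, 9.60 and 9.14. Its difference of 0.69 ± 0.25 passed at 0.0298 and was lost without A2 replicate 1 or 2, without microglia replicate 1 or 2 and on median centring (0.57, adjusted p = 0.0777). Bhlhe41, a repressor of the circadian and stress-response family, had the largest rise of the list, from 2.99, 1.95 and 3.12 to 7.46, 7.45 and 7.49. Cebpa (1.40), Mitf (1.30) and Mef2a (1.27) rose as well. Pparg, the lipid-sensing nuclear receptor, fell from 5.96, 5.83 and 5.40 to 3.03, 3.77 and 2.79, and Cebpb fell by 1.17. Maf differed by 0.88 and did not pass (adjusted p = 0.0686).

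Of 29 regulators of stem and progenitor cells, 8 were lower and 3 were higher, beside 15.2% and 14% of all genes tested. Kit, the stem cell factor receptor, read 5.24, 5.21 and 4.69 in A2 and 3.26, 2.80 and 3.30 in microglia, where it lay at the floor. Myb, which drives proliferation of definitive progenitors, fell from 6.84, 6.81 and 6.73 to 4.46, 4.69 and 5.05, a change of -2.07 ± 0.34 (limma adjusted p = 1.33e-06). Gfi1b (-1.83), Meis1 (-1.46), Myc (-1.33) and Nfe2 (-1.17) followed the same direction. Gata1, the erythroid regulator, was near the floor in all 6 arrays, from 2.38 to 3.51, and did not pass. Runx1 also did not pass (0.24, adjusted p = 0.373). Of the 3 that rose, Sox4 had the largest change, at 4.56, 4.33 and 4.84 in A2 and 7.75, 8.05 and 8.02 in microglia.

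Genes that mark early fetal stages in many tissues fell in 6 of 12 cases and rose in 1, with a median of -0.76. Lin28b, which blocks maturation of let-7 microRNAs, read 6.63, 6.25 and 6.16 in A2 and 3.49, 3.62 and 3.89 in microglia, a change of -2.68 ± 0.24 (limma adjusted p = 5.93e-14). Hmga2, a chromatin protein and let-7 target, fell by 2.14, and Trim71 fell by 1.30. Igf2bp3, an RNA-binding protein of the same fetal programme, fell less, by 0.74, and stayed between 7.78 and 7.86 in microglia. Mest, an imprinted gene, rose by 1.65.

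Components and targets of TGF-beta signalling rose in 12 of 28 cases and fell in 0. The median of the list was 0.45, so most of its members moved little. Among the receptors, Tgfbr1 read 6.52, 6.56 and 6.51 in A2 and 9.15, 9.33 and 9.21 in microglia, and Tgfbr2 read 6.10, 6.10 and 5.88 against 7.65, 7.79 and 7.71. Among genes that the pathway induces as its own inhibitors, Pmepa1 went from 2.54, 3.15 and 3.02 to 7.37, 7.02 and 7.17, and Smad7 from 4.65, 4.09 and 4.37 to 6.89, 6.70 and 6.55. The corepressors Skil (2.10) and Ski (1.81) rose with them. Every one of these genes separated the 3 A2 arrays from the 3 microglia arrays, as did 4869 of all 4994 called genes.

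Cytokine receptors rose in 18 of 28 cases and fell in 2, of which Kit was 1; 1 fell without A2 replicate 2 or without microglia replicate 2. Il10ra, the receptor of interleukin-10, rose by 2.22, Csf2rb2 by 1.83 and Csf3r by 1.46. Of the secreted factors, 9 of 27 rose and 2 fell. Csf1, itself a ligand of Csf1r, went from 3.28, 3.32 and 2.80, near the floor, to 7.21, 7.18 and 7.10. Il34, the other ligand, lay below the floor in all 6 arrays, from 1.67 to 2.42. The growth factor Pdgfb rose by 2.56 and granulin (Grn) by 1.63. Tnf fell from 7.10, 6.50 and 6.74 to 5.28, 5.21 and 4.67, and the costimulator Tnfsf9 fell by 2.60.

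Sensing and clearance receptors formed the next block of rises. Of 21 genes for recognition and uptake of dying cells, 12 rose and 1 fell, or 2 fell without A2 replicate 1 or without microglia replicate 3. Axl, a receptor kinase that binds Gas6, read 4.83, 4.42 and 4.45 in A2 and 7.37, 7.63 and 7.46 in microglia, and Trem2, a lipid receptor, read 7.48, 7.19 and 7.18 against 9.82, 10.16 and 10.09. The integrin subunit Itgb5 rose by 2.88. The member that fell was Timd4, a phosphatidylserine receptor of fetal liver and peritoneal macrophages, at 7.11, 6.92 and 6.54 in A2 and 3.42, 4.28 and 4.48 in microglia. Havcr2, which belongs to the same receptor family as Timd4, moved the other way, from 3.01, 2.03 and 2.45 to 7.62, 7.38 and 7.19.

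Purine receptors split by member, with 8 of 16 higher and 4 lower. P2ry13 (3.26), the ATP-gated channel P2rx7 (2.21) and P2ry6 (1.66) rose together with P2ry12 and with the ectonucleotidase Entpd1 (1.90), which degrades ATP. P2ry2 fell from 5.59, 5.14 and 4.11 to 2.31, 2.95 and 2.48, and P2ry14 fell by 1.92. Of 26 Toll-like receptors and adaptors, 12 rose and 1 fell. The endosomal receptors Tlr3 (2.59), Tlr13 (2.50) and Tlr9 (1.93) rose, as did Unc93b1 (2.15), which escorts them to endosomes, while the adaptor Myd88 fell by 0.62. Of 21 Fc receptor and TREM genes 12 rose, with Fcrls (3.08), the inhibitory receptor Fcgr2b (2.98) and Cd300c2 (2.77) in front. Complement genes rose in 9 of 21 cases, C1qa from 7.96, 8.03 and 7.28 to 10.12, 10.35 and 10.22, and the properdin gene Cfp fell by 1.74.

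Lysosomal genes rose almost throughout: 26 of 33 were higher and 1 was lower, with a median of 1.14. The cathepsin Ctsh read 4.85, 5.10 and 5.28 in A2 and 8.60, 8.71 and 8.47 in microglia. Ctsf (3.11), Lgmn (2.51), Naglu (2.41) and Man2b1 (1.80), all hydrolases of the lysosome, also rose, and Ctsc fell by 0.69. Among lipid genes 12 of 27 rose and 3 fell; the cholesterol exporters Abcg1 (3.77) and Abca1 (2.87) had large rises, and Ptgs2 (-1.63) and Pla2g4a (-1.09), which release and oxidise arachidonic acid, fell. Sterol synthesis genes rose in 0 of 18 cases and fell in 4, among them Sqle (-1.48) and Fdps (-1.35), and 10 fell with arrays weighted by quality. Of 19 genes for MHC class I presentation 10 rose by modest amounts, led by Tapbp (1.28) and H2-T23 (1.26), and 1 fell, or 2 without A2 replicate 3 and 0 without A2 replicate 2 and microglia replicate 3. Of 14 class II genes, 6 rose. H2-Aa, the class II alpha chain itself, stayed around the floor, from 2.34 to 3.70. Interferon-stimulated genes moved in no common direction, with 6 of 37 higher and 4 lower. Ifitm3, a virus entry inhibitor, fell from 9.58, 9.55 and 9.66 to 6.79, 7.78 and 7.66.

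Growth genes fell almost without exception. Of 29 genes of ribosome biogenesis and Myc response, 28 fell and 1 rose, with a median of -1.42. Dkc1, the dyskerin of small nucleolar ribonucleoproteins, read 7.84, 7.80 and 7.57 in A2 and 5.58, 5.81 and 5.53 in microglia, a change of -2.10 ± 0.19 (limma adjusted p = 2.06e-14). Srm, the spermidine synthase, read 9.57, 9.74 and 9.46 against 7.56, 7.64 and 7.57. Rrp12 (-2.26), Rcl1 (-2.06) and Nolc1 (-2.06), which act in pre-rRNA processing, and Cad (-1.90), which starts pyrimidine synthesis, fell as well. The count of 28 was the same under all 19 alternatives, while the rise of Eif4a1 (0.58) was lost under 3 of them, without A2 replicate 3, without microglia replicate 1, and without A2 replicate 2 and microglia replicate 3.

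Cell cycle genes fell in 31 of 36 cases and rose in 0, with a median of -1.07. Cdc6, which licenses replication origins, read 7.77, 7.64 and 7.62 in A2 and 5.36, 4.88 and 4.86 in microglia. Mybl2 fell by 2.25, Uhrf1 by 1.95, Aurka by 1.68 and Mcm5 by 1.61. The classical proliferation marker Mki67 stayed high: it read 9.19, 9.24 and 9.15 against 8.63, 8.56 and 8.44, and its change of -0.65 did not pass (adjusted p = 0.11), although the 3 arrays of each group did not overlap; it passed with array weights (-0.66, adjusted p = 0.0196) and with other groups kept out of limma's fit (adjusted p = 0.000142). Top2a changed by -0.79, just past the threshold at 0.0457 and short of it under 12 of 19 alternatives. The D-type cyclins, which couple growth signals to the cell cycle, changed in opposite directions. Ccnd2 fell from 8.43, 8.46 and 8.26 to 5.22, 5.17 and 6.00 and Ccnd3 by 2.13, while Ccnd1 rose from 6.98, 6.34 and 5.95 to 7.40, 7.46 and 7.50. The cycle inhibitors Cdkn2c (1.34), Cdkn1a (1.11) and Cdkn1b (0.83) and the brake Rb1 (1.10) rose.

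Genes of energy metabolism fell more often than they rose. Of 26 genes of glycolysis and hypoxia response, 15 fell and 4 rose. The enzyme Pfkp fell from 6.47, 6.54 and 6.57 to 3.64, 3.42 and 3.92 and the glucose transporter Slc2a3 fell by 2.09, whereas the lactate dehydrogenase subunit Ldhb rose from 4.07, 4.42 and 4.52 to 8.35, 8.57 and 8.17. Of 27 respiratory chain genes 15 fell and 0 rose, with a median of -0.41; the count was 9 without A2 replicate 2 and 8 without that array and E14 microglia replicate 3. Cycs, cytochrome c, had the largest fall, -1.30. Immediate early and heat shock genes, which respond to handling, fell in 12 of 26 cases and rose in 4, beside 15.2% and 14% of all genes tested. Without A2 replicate 2, 2 rose. Fos read 6.39, 5.48 and 6.28 in A2 and 3.44, 3.47 and 3.59 in microglia, Cd69 fell by 3.12 and Hspa1b, a near copy of Hspa1a, by 3.40. The part of tissue handling in these differences was not tested.

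**Figure D2:**
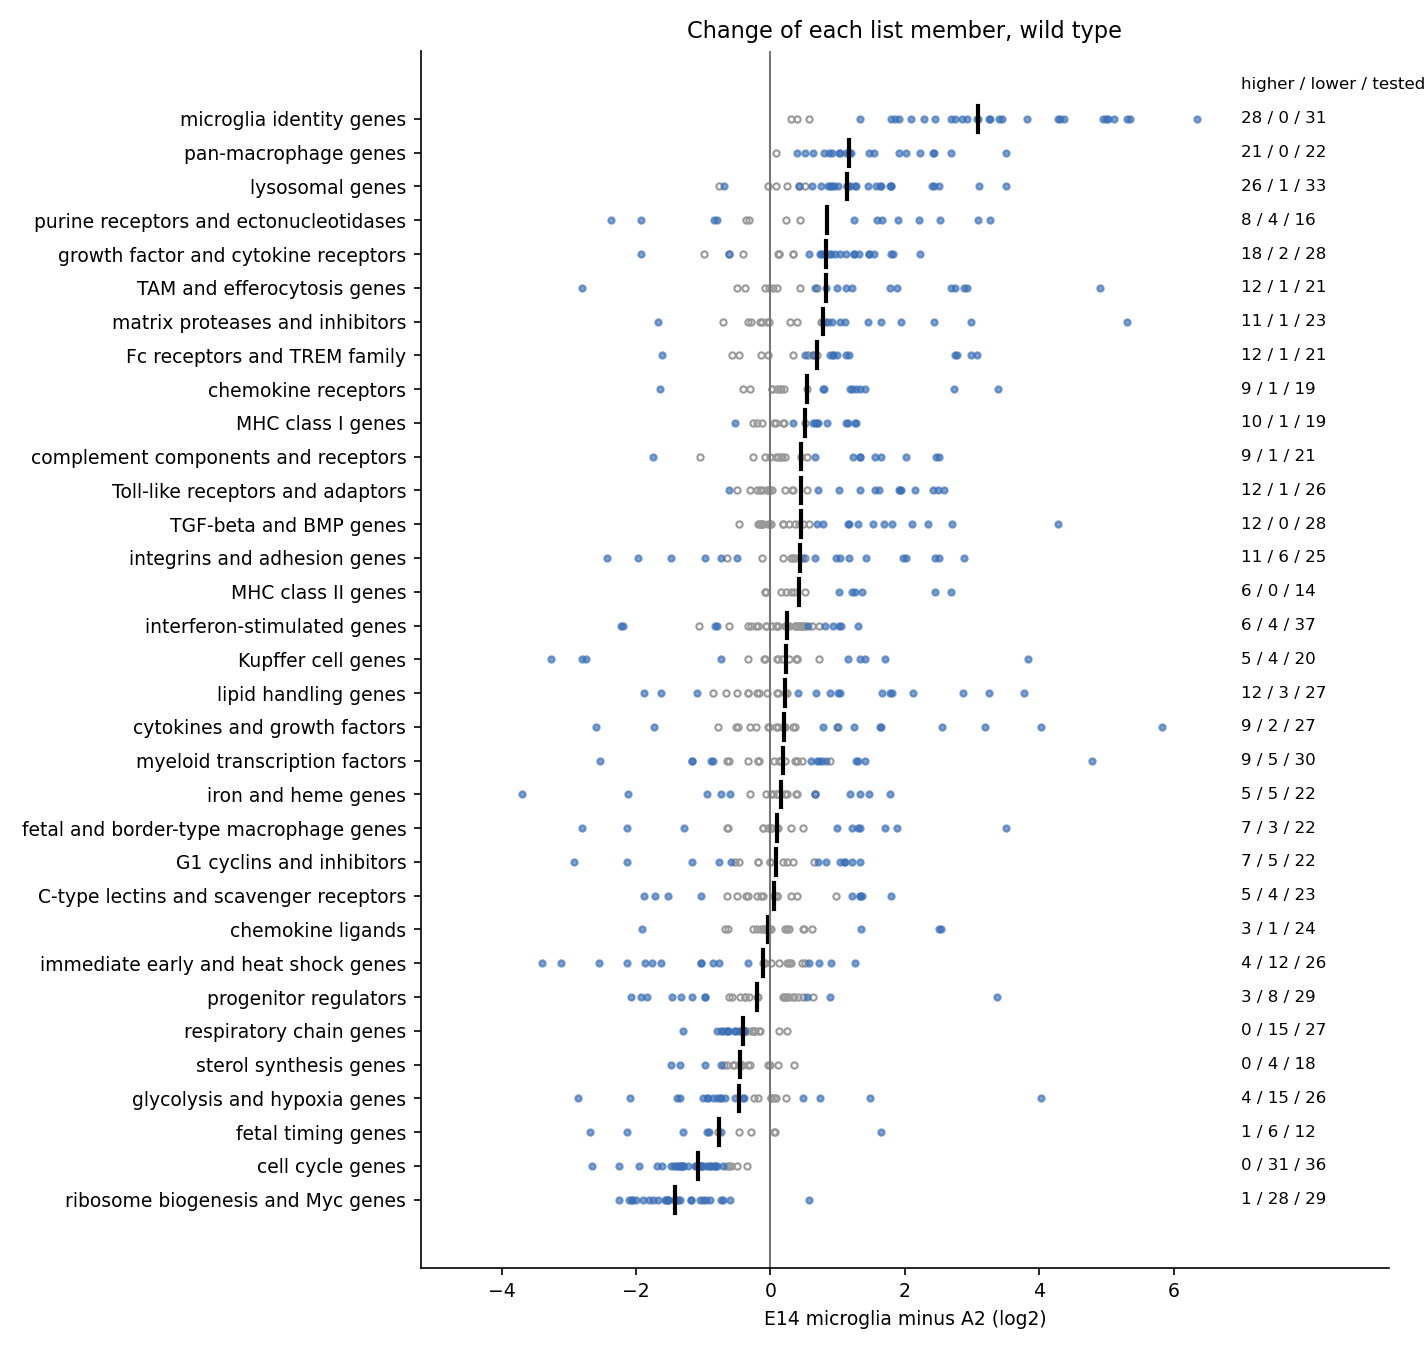
Each point is 1 gene's difference between E14 microglia and A2 (log2, x axis) in the gene list named on the y axis, filled where the limma adjusted p was under 0.05 and open otherwise, with a black bar at the list's median and the counts of higher, lower and tested genes at the right. Medians run from 3.09 for microglia identity genes to -1.42 for ribosome biogenesis, beside -0.01 for all genes.

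The largest falls were of genes with varied roles. Hbb-bh1, an embryonic beta-like globin, read 8.48, 8.38 and 7.50 in A2 and 3.49, 2.07 and 3.40 in microglia, the largest fall at -5.14 ± 0.74 (limma adjusted p = 6.52e-08). Hbb-y, another embryonic globin, did not follow, from 6.97 to 8.75 in A2 and from 7.66 to 8.43 in microglia; globin genes are near copies whose probes can share signal. The AMPA receptor subunit Gria3, a gene best known from neurons, read 7.29, 7.37 and 7.06 in A2 and 2.53, 2.16 and 3.37 in microglia. Other large falls without overlap of the arrays included Rgs18 (-3.88), a signalling regulator, Emb (-3.64) and the calcium-binding S100a6 (-3.61). Plac8 (-3.43), Hapln1 (-3.40) and the BMP-responsive Id3 (-3.26) were also among them. Mpo fell by 4.11, with arrays that overlapped. Id1 fell as well, by 2.75. Haptoglobin (Hp) read 8.35, 8.51 and 8.35 in A2 but was uneven in microglia, at 3.27, 4.46 and 6.41.

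Adhesion and migration genes changed in both directions. Of 25 integrin and adhesion genes, 11 rose and 6 fell. The hyaluronan receptor Cd44 (-2.43) and the integrin subunit Itga4 (-1.97), which binds Vcam1, fell, while Selplg (2.45), Itgam and Itgax (2.51) rose. Of 19 chemokine receptor genes, 9 rose and 1 fell, or 4 rose without A2 replicate 3. S1pr1, the sphingosine-1-phosphate receptor, rose from 4.92, 4.05 and 4.03 to 7.43, 7.82 and 7.88, and Ccr2, the receptor of blood monocytes, fell by 1.64. Of 23 matrix protease genes and inhibitors, 11 rose and 1 fell (0 without A2 replicate 1), with Mmp2 (2.98) and Mmp14 (2.43), which activates it, among the rises. Chemokine ligands (3 of 24 higher, 1 lower), lectins and scavenger receptors (5 of 23 higher, 4 lower), iron and heme genes (5 of 22 higher, 5 lower) and Kupffer cell genes (5 of 20 higher, 4 lower) had no common direction. Without single arrays, the iron and heme counts went to 3 higher (microglia replicate 3) and 3 lower (A2 replicate 1 or 2), and 3 Kupffer cell genes were higher without A2 replicate 1 or microglia replicate 2 or 3.

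The growth and lysosome lists, whose members moved together, were set beside their promoters. RefSeq promoter sequences of GRCm38.p6, from 250 bases before to 50 after a gene's start, were matched by symbol for 13208 of the 17099 genes tested and searched on both strands. CACGTG, the E-box bound by Myc and by the Tfeb family, was in 7 of 24 ribosome biogenesis genes (29.2%) and in 10 of 27 lysosomal genes (37.0%), beside 10.4% of the 13208 genes with a promoter, to which the shares of all genes below refer too. These lists moved in opposite directions. TTTGAA, the CHR element of cell cycle promoters, was in 12 of 31 cell cycle genes (38.7%) beside 15.5% of all, and CCAAT in 22 (71.0%) beside 41.7%. CCAAT was also in 60.0% of microglia identity and 48.1% of lysosomal promoters, of lists that rose. In ribosome biogenesis promoters its share was 33.3%. The ETS-IRF composite element, to which PU.1 binds with Irf8, was in 0 of 20 microglia identity promoters beside 2.91% of all, which says only that its letters are not in this window. The patterns are not contained in each other. The members with the largest change in each list whose promoter held the pattern before the start are shown, 80 bases each, 5′ to 3′ on the gene's strand, with the pattern in capitals.
Hspd1: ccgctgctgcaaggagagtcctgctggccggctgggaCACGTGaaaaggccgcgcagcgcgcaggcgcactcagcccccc
Ran: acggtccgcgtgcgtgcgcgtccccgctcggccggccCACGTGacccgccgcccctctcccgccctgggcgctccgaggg
Ctsf: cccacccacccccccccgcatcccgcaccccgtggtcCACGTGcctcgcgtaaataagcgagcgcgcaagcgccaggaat
Lgmn: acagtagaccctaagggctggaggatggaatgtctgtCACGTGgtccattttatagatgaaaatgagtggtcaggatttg
Mcm2: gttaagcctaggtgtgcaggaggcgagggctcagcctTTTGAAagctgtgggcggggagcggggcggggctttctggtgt
Cdc20: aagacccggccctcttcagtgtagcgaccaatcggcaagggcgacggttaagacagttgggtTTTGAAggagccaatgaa
Hspd1 (chr1:55088281-55088360, minus strand), a mitochondrial chaperone, fell by 1.42, and Ran (chr5:129020001-129020080, plus strand), the nuclear transport GTPase, fell by 1.00. Ctsf (chr19:4855049-4855128, plus strand) rose by 3.11 and Lgmn (chr12:102439099-102439178, minus strand) by 2.51. Mcm2 (chr6:88898808-88898887, minus strand), part of the replicative helicase, fell by 1.31, and Cdc20 (chr4:118437344-118437423, minus strand), the activator of the anaphase complex, fell by 1.30. A match describes the sequence and not a bound site.

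Genes of fetal and border-type macrophages did not follow the microglia identity genes, and they differed between the microglia arrays. Of 22 tested, 7 rose and 3 fell, with a median of 0.10. The mean level of the list was 6.03 to 6.26 in the A2 arrays, and 5.60, 6.69 and 6.89 in microglia replicates 1, 2 and 3. Lyve1, the hyaluronan receptor of perivascular and leptomeningeal macrophages, read 8.08, 8.06 and 7.17 in A2 and 5.32, 8.30 and 9.72 in microglia. Microglia replicate 1 lay below all A2 arrays and replicates 2 and 3 above them. F13a1, a coagulation factor subunit of such macrophages, read 8.54, 8.65 and 8.73 against 5.08, 8.22 and 8.79; its difference of -1.28 (adjusted p = 0.029) was -0.13 without microglia replicate 1. Mrc1, the mannose receptor, overlapped between the groups, from 9.25 to 9.63 in A2 and from 9.13 to 9.67 in microglia. Ms4a7 rose from 4.10, 3.00 and 4.06 to 6.59, 7.36 and 7.74, and Ednrb, an endothelin receptor, fell from 9.33, 9.38 and 8.96 to 6.02, 7.53 and 7.74.

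Among the lists that mark other cells, the neural list had the largest share of changed genes. Over all genes tested 14% were higher and 15.2% were lower, and several of the lists below lay near those shares. Of 20 neural genes, 14 were higher in the microglia arrays and 1 was lower (0 without microglia replicate 1), and the mean level of the list was 2.73 to 2.96 in A2 and 4.03 to 4.38 in microglia. Tubb3, a neuronal tubulin, read 1.96, 2.28 and 1.61 against 6.05, 6.19 and 5.89, Nnat rose by 3.97 and Fabp7, a radial glia gene, by 3.83. With the low-value floor at the 75th percentile 8 passed. Of 23 neutrophil and granule genes, 8 rose and 2 fell, and the list mean of microglia replicates 1, 2 and 3 was 3.58, 5.42 and 6.21 beside 3.91, 4.89 and 4.13 in A2. S100a8, a neutrophil alarmin, read 5.76, 10.12 and 10.85 in microglia and 3.75, 8.06 and 4.54 in A2. Only 2 of the neutrophil genes rose without microglia replicate 2, 3 without replicate 3, 4 without A2 replicate 1 and 5 without A2 replicate 3. Mpo, the myeloperoxidase of immature granulocytes, read 9.68, 9.81 and 8.97 in A2 and 3.47, 3.31 and 9.35 in microglia, so 1 microglia array lay inside the A2 range. Of 20 endoderm and mesothelium genes 3 fell, with 0 falling without A2 replicate 2 and 1 without microglia replicate 1. Erythroid genes rose in 2 of 14 cases, or in 1 without A2 replicate 3 or microglia replicate 3, and fell in 2. The endothelial and pericyte list had 3 of 21 in each direction, near the shares of all genes. The pericyte gene Rgs5 (3.15), Cdh5 (1.15) and Kdr (1.06) rose, and Flt1 (-2.18), Tie1 (-1.78) and Egfl7 (-1.28) fell. Without microglia replicate 2, 1 of this list rose. Of 15 monocyte genes 6 fell and 1 rose (0 without microglia replicate 1). Megakaryocyte genes (1 of 13 higher, 3 lower), mast cell genes (1 of 12 higher, 1 lower) and lymphoid genes (2 of 16 higher, 0 lower) completed the lists. Without single arrays, the higher counts of megakaryocyte genes (A2 replicate 1 or 3, microglia replicate 3) and mast cell genes (any but A2 replicate 1) went to 0, the lower count of mast cell genes went to 0 (A2 replicate 1, microglia replicate 1 or 2), and the higher count of lymphoid genes went to 1 (A2 replicate 1 or 3, microglia replicate 2 or 3). The part of these cells in the other differences was not tested. The microglia identity list rose in 27 of 31 cases without A2 replicate 2 and E14 microglia replicate 3, lysosomal genes in 25 of 33 and pan-macrophage genes in 20 of 22, and cell cycle genes fell in 26 of 36.

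**Figure D3:**
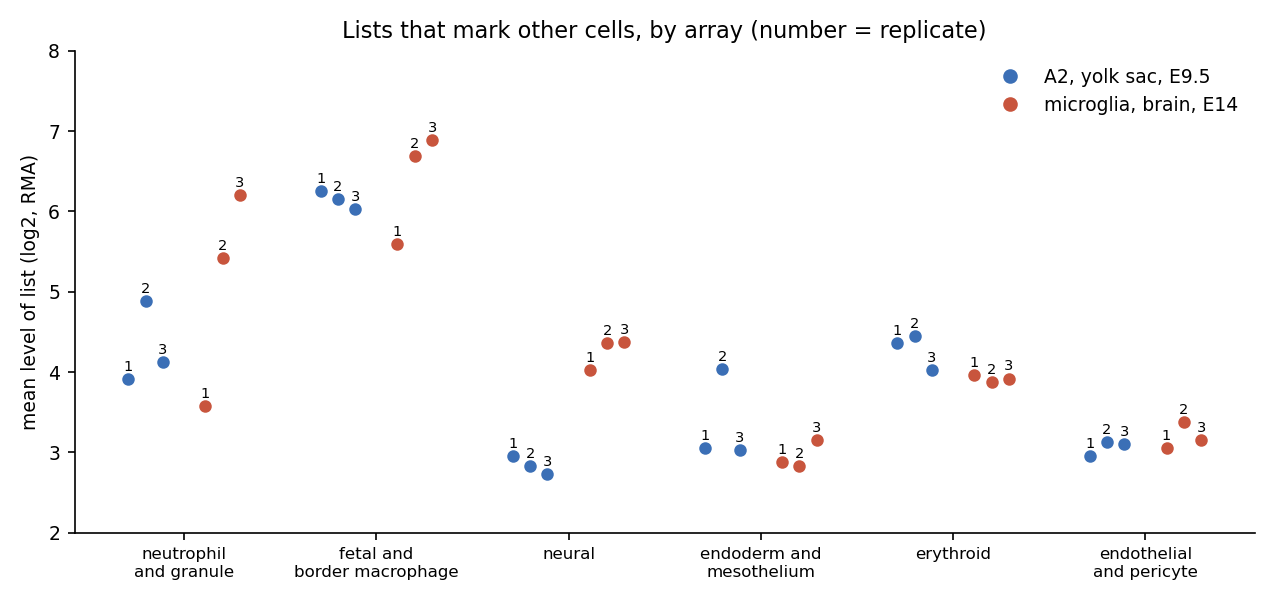
Each point is the mean log2 level (y axis) of a marker list in 1 wild-type array, blue for A2 and red for E14 microglia, with the replicate number above it. The neutrophil list runs from 3.58 to 6.21 among the microglia arrays, the neural list is higher in all 3 of them, and A2 replicate 2 stands apart in the endoderm list at 4.04.

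The steps before and after were set beside this change, in comparisons that share the A2 or the E14 microglia arrays with it. From A1 to A2, 969 genes (5.67%) were higher and 974 (5.7%) lower. From E14 to adult microglia, 1143 genes (6.68%) were higher and 1993 (11.7%) lower. Of the microglia identity genes 10 of 31 were higher and 2 lower in A2 than in A1, 28 rose from A2 to E14, and 15 were higher and 0 lower in adult than in E14 microglia. P2ry12 rose from A1 to A2 by 3.85 ± 0.38 and from A2 to E14 by 3.09, and the further difference of 0.76 in the adult did not pass (adjusted p = 0.18). Sall1 passed only between A2 and E14 among these 3 steps: its level was 3.00 ± 0.32 (SD, n = 3) in A1, 2.95 ± 0.43 in A2, 9.30 ± 0.14 in E14 microglia and 9.67 ± 0.21 in adult microglia, with adjusted p of 0.968 for the step before and 0.55 for the step after. Tmem119 rose by a further 1.33 ± 0.26 to the adult. Kit, given as description because it is used to isolate such cells, fell by 3.49 before A2 and then by 1.93. Of 29 progenitor regulators 23 were already lower in A2 than in A1 and 0 were higher.

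Proliferation genes had another course. Between A1 and A2, 0 of 36 cell cycle genes passed in either direction; 31 then fell to E14 and 34 fell further to the adult, with a median of -2.58 for the last step. Ccnd2 was 8.07 ± 0.09 in A1, 8.39 ± 0.11 in A2, 5.46 ± 0.46 in E14 microglia and 2.43 ± 0.22 in the adult (SD, n = 3). Ribosome biogenesis genes fell in 6 of 29 cases from A1 to A2 and in 13 from E14 to the adult. Lysosomal genes rose in 19 of 33 cases from A1 to A2 and in 2 from E14 to the adult, where 11 fell. A set of E14 rises was not kept: Csf1 was 7.16 ± 0.06 in E14 microglia and 4.59 ± 0.19 in adult microglia, and Axl was 7.49 ± 0.13 and 4.97 ± 0.27. Neural genes were lower in the adult arrays in 15 of 20 cases. Border-type genes were higher in A2 than in A1 in 14 of 22 cases and lower in the adult in 17; Mrc1 was 5.10 ± 0.22 in A1, 9.46 ± 0.20 in A2, 9.35 ± 0.29 in E14 microglia and 4.51 ± 0.32 in the adult.

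**Figure D4:**
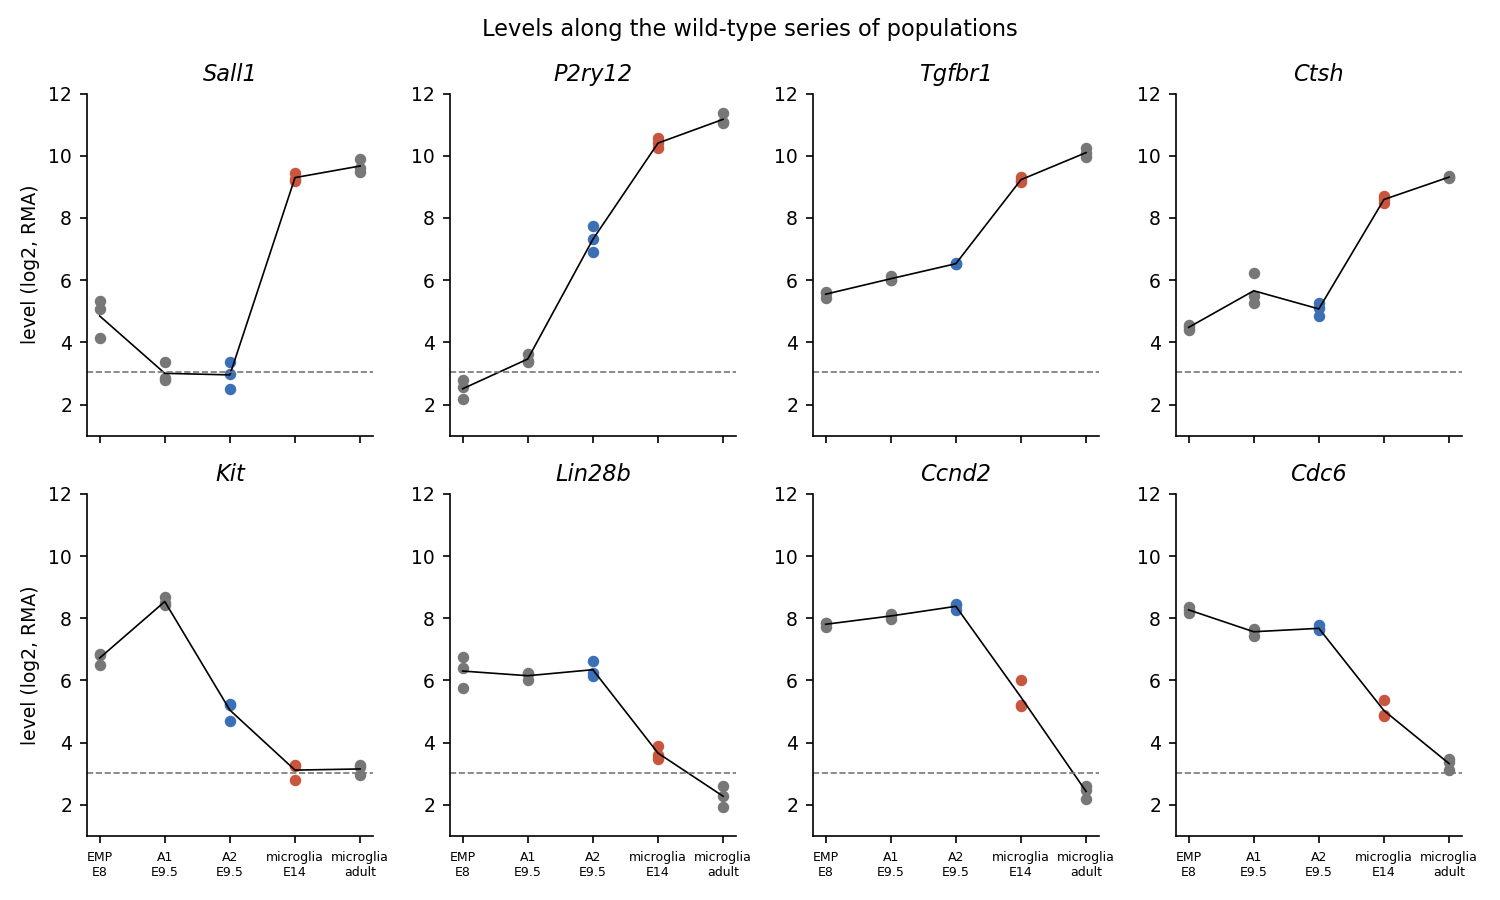
Log2 levels (y axis) of 8 genes in each wild-type array of the E8 progenitors (EMP), A1, A2 (blue), E14 microglia (red) and adult microglia, with a line through the means and the low-value floor dashed. Sall1 rises between A2 and E14, P2ry12 also before A2, Kit falls before A2, and Ccnd2 and Cdc6 fall from A2 to E14 and again to the adult.

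Whether these changes were shared with another tissue macrophage of the same age was asked by setting E14 microglia against E14 Kupffer cells; the difference of their steps from A2 equals this direct difference, because A2 cancels. All 3 Kupffer arrays carry the same replicate number in their descriptions and were taken as 3 samples, so n = 3 and the p-values here rest on that. E14 microglia were higher for 2004 genes (11.7%) and lower for 1807 (10.6%). The microglia identity list was higher in 29 of 31 cases and lower in 0. Sall1 was 3.22 ± 0.54 (SD, n = 3) in Kupffer cells, a difference of 6.07 ± 0.34 (limma adjusted p = 1.92e-23). Gpr165 (6.40), Slc2a5 (6.28), Siglech (6.23), Fcrls (6.07), Sparc and the Ras activator Rasgrp3 (both 5.56) and Plxdc2 (5.49) had the other large differences. Il1a was 7.94 ± 0.05 in Kupffer cells and did not pass (0.31, adjusted p = 0.798), and Ctsh, at 8.94 ± 0.08, did not either. Of the lysosomal genes 14 of 33 were higher in microglia and 3 lower, and of the TGF-beta genes 13 of 28 were higher and 3 lower. Cell cycle genes were lower in microglia in 20 of 36 cases and ribosome biogenesis genes in 13 of 29, with 0 higher in either list, and interferon-stimulated genes were lower in 20 of 37. Timd4 was 9.95 ± 0.11 in Kupffer cells, above A2 at 6.86 ± 0.29, and 4.06 ± 0.56 in E14 microglia. The Kupffer arrays also held liver and red cell transcripts, with Afp at 10.44 ± 0.29 and an erythroid list mean of 7.89 beside 3.88 to 3.96 in microglia, whose part was not tested.

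The same step was compared between genotypes as the knockout difference of E14 microglia and A2 minus the wild-type difference. Irf8 itself read 8.58 to 9.26 in the A2 knockout arrays and 9.01 to 9.53 in the microglia knockout arrays. Both ranges overlapped those of wild type. No source at hand places its probe relative to the deleted part, so the gene does not check the labels. The step was more positive in the knockout for 970 genes (5.67%) and more negative for 488 (2.85%). Of the microglia identity genes, 13 of 31 had a smaller change in the knockout and 1 a larger. Sall1 was 2.97 ± 0.27 (SD, n = 3) in knockout A2 and 3.58 ± 0.25 in knockout E14 microglia, so that its step was 5.72 ± 0.48 (SE) log2 units smaller than in wild type (limma adjusted p = 1.07e-14). Il1a (-5.46), Npnt (-5.05), Spint1 (-4.94) and Slc2a5 (-4.84) also stayed at the floor in knockout microglia, with means of 2.66 to 3.00. Siglech and Gpr165 were different: they reached 9.69 ± 0.06 and 8.89 ± 0.06 in the knockout, and the differences of their steps, 0.50 and 0.41, did not pass. P2ry12 had a larger step in the knockout, by 1.83 ± 0.54 (adjusted p = 0.0196), from a lower A2 level of 4.46 ± 0.31 to 9.38 ± 0.16.

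In the opposite direction, 19 of 22 border-type genes had a more positive step in the knockout and 0 a more negative one. The mean level of this list was 3.89 in knockout A2, below the wild-type A2 arrays at 6.03 to 6.26. In knockout microglia it was 7.96, above the highest wild-type microglia array at 6.89. Both ends of the step thus differed between genotypes. Ccl2, a monocyte-attracting chemokine, fell in wild type from 7.55 ± 0.79 to 5.64 ± 0.67 and was 3.22 ± 0.65 in knockout A2 and 8.29 ± 0.39 in knockout microglia (SD, n = 3), a difference of 6.97 ± 0.65 (SE). S100a6 (6.22), Ifitm6 (6.20), Timd4 (6.19), Clec12a (5.61), Id3 (5.33), the scavenger receptor Msr1 (5.25) and F13a1 (5.22) behaved likewise, and for each of these 8 genes the mean of knockout A2 was below that of wild-type A2 and the mean of knockout microglia above that of wild-type microglia. Of 36 cell cycle genes 4 and of 29 ribosome biogenesis genes 0 differed in their step. The neutrophil list had a mean of 4.78 in knockout A2 and 7.76 in knockout microglia, above all 3 wild-type microglia arrays, and the neural list a mean of 4.91 in knockout microglia; the part of those cells in these differences was not tested.

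**Figure D5:**
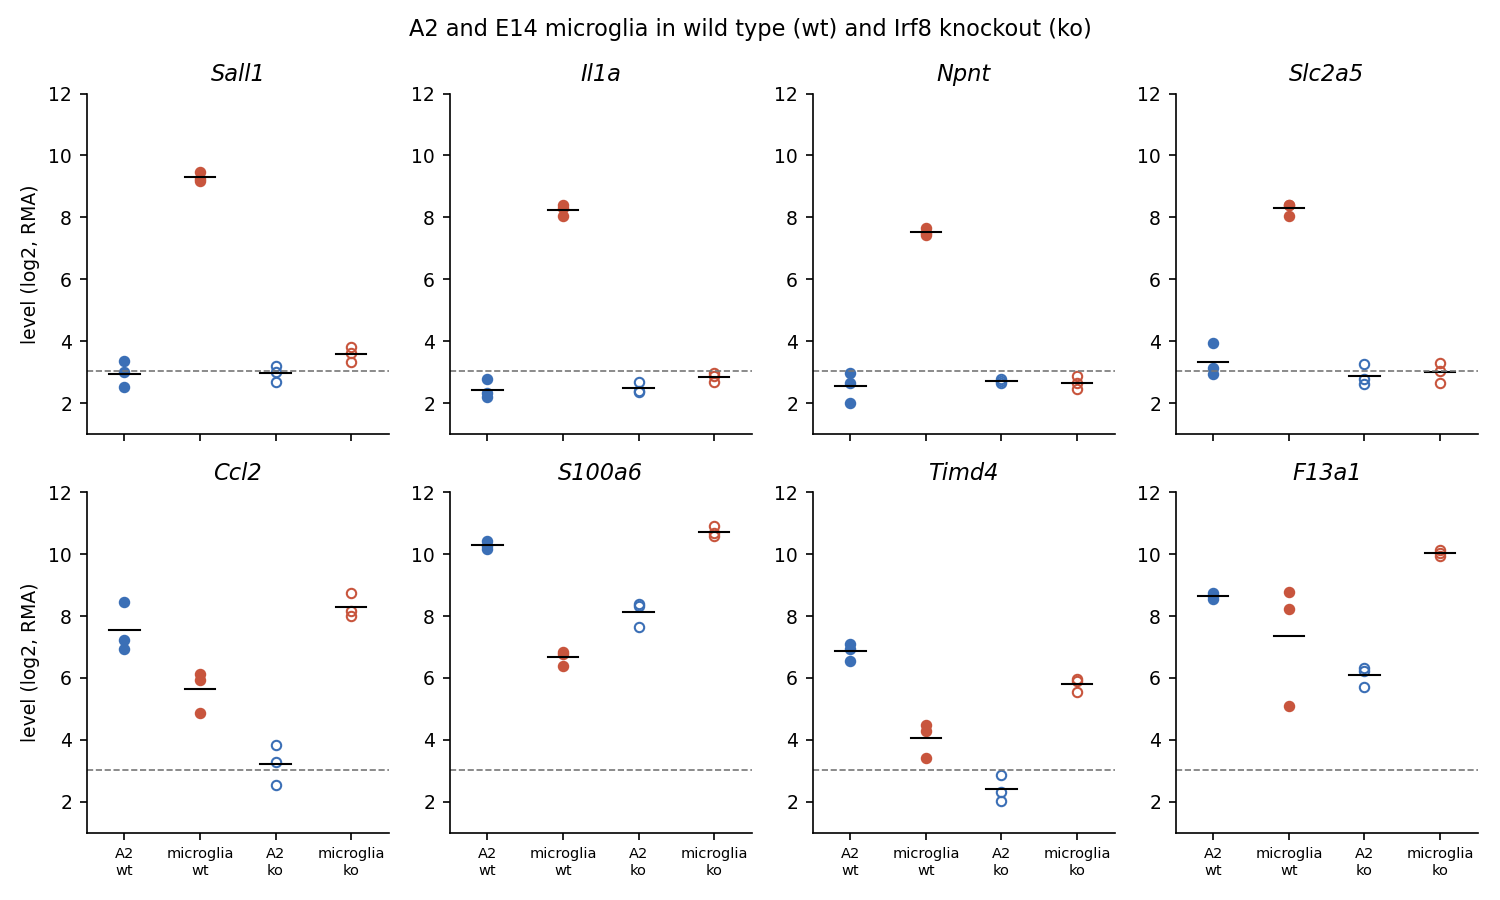
Log2 levels (y axis) of 8 genes in A2 (blue) and E14 microglia (red), wild type (filled) and Irf8 knockout (open), 3 samples each with a bar at the mean and the low-value floor dashed. The genes of the upper row rise in wild type and stay at or near the floor in the knockout, and those of the lower row are lower in microglia than in A2 on average in wild type and higher in the knockout.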

How the data were processed

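RNA of sorted cells was amplified with Ovation PicoSL and hybridised to Affymetrix arrays, per the labels' protocols. The authors deposited RMA values on the log2 scale. Affymetrix Expression Console is the tool listed in the submitters' processing notes, which state no version or genome build. Probes with 1 gene symbol were kept (23521 of 41345), with the brightest probe per gene over all arrays (22180 genes), and genes above 3.041, the 50th percentile of the table, in 2 or more arrays were tested (17099). Group means (27 groups, 80 samples) were fitted by limma (version 3.58.1, under R 4.3.3) using a variance trend, Benjamini-Hochberg adjustment and a threshold of 0.05; the 2 runs of A2 knockout replicate 2 were averaged. The number of arrays limits the precision. The fit was checked on simulated data. Genes were named by a rule: the 15 largest rises and falls without overlap, up to 6 per list and direction, 8 per direction in the genotype and Kupffer comparisons, and a set of regulators and markers; promoter examples and a few genes outside it were chosen after their values were seen. The members, the 42 gene lists and the names were chosen with earlier results of these data known. In the lists, 1 gene can stand in several, and some members are not reported here. No further normalization was applied.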

Additional observations from a re-analysis of the deposited data

Results flagged for a closer look

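The step from A2 to E14 microglia differed between genotypes beyond the threshold (limma, difference of the differences, knockout minus wild type) for these named genes. It was more negative in the knockout for Sall1 (-5.72), Il1a (-5.46), Npnt (-5.05), Spint1 (-4.94), Slc2a5 (-4.84), Adgrg1 (-4.38), Plxdc1 (-3.57) and Ecscr (-3.50). It was more positive for Ccl2 (6.97), S100a6 (6.22), Ifitm6 (6.20), Timd4 (6.19), Clec12a (5.61), Id3 (5.33), Msr1 (5.25) and F13a1 (5.22). Adgrg1 was 7.24 ± 0.58 in knockout A2 and 5.88 ± 0.36 in wild-type A2 (SD, n = 3). In E14 microglia it read 5.07, 4.82 and 4.28 in the knockout and 7.49, 7.88 and 7.82 in wild type. It thus fell in the knockout and rose in wild type.

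The steps from A2 differed between brain and liver, which is the difference of E14 microglia and E14 Kupffer cells in wild type, for a further set. It was positive for Gpr165 (6.40), Slc2a5 (6.28), Siglech (6.23), Fcrls (6.07), Sall1 (6.07), Sparc (5.56), Rasgrp3 (5.56) and Plxdc2 (5.49). It was negative for Afp (-7.53), Timd4 (-5.89), Tgm2 (-5.47), Clec1b (-5.33), Adgre4 (-5.30), Dmpk (-5.29), Ermap (-5.11) and Wfdc17 (-5.05). Afp stands in the endoderm list, with a mean of 5.82 in Kupffer cells and 2.83 to 3.15 in microglia. Ermap stands in the erythroid list, with 7.89 and 3.88 to 3.96. The part of liver and red cell transcripts in these differences was not tested. Afp's own fall from A2 to microglia did not pass without A2 replicate 2 (-0.84).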

How the results depend on the processing

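Each comparison was repeated with other settings. For the genotype difference, 970 genes higher and 488 lower became 1730 and 1117 with array weights and 1527 and 917 when other groups were kept out; for A2 against A1, 969 and 974 became 1560 and 1734 with array weights. The cause was not tested. All other counts of genes stayed within 1.5 times. Leaving out 1 sample at a time gave 1999 to 2124 genes higher and 2220 to 2331 lower for E14 microglia against A2, 794 to 891 and 362 to 426 for the genotype difference, 1580 to 1736 and 1483 to 1564 against Kupffer cells, 746 to 877 and 721 to 821 for A2 against A1, and 838 to 953 and 1571 to 1775 for adult against E14 microglia. Same-numbered A2 and microglia samples had little shared deviation (correlations 0.08, -0.02 and -0.01, beside -0.05 to 0.06 for other pairs). Such values cannot exclude a small shared effect, and the main fit used no pairing. With the replicate block 2371 genes were higher and 2569 lower. No called named gene reversed; of 6038 values for 318 named genes in the step, 229 lost and 10 gained the call. Low-signal genes, near background in A2 or in microglia, limit the size of changes. Leaving out A2 replicate 2 with E14 microglia replicate 3 was chosen after seeing the data.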
